A study of Mus musculus with 6 samples.

Results

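The basement membrane collagen genes Col4a1, Col4a2, Col4a3, Col4a4, Col4a5, Col8a1, Col15a1 and Col18a1 were examined in kidney endothelial cells (ECs) of RbpjΔEC mice and their Cre-negative controls. The 8 genes were taken by name from the table of counts per gene, which lists 55401 genes, and they were chosen with their values in the mutant and control libraries known, with Col18a1 set against the other chains. Their difference between the genotypes is therefore a description, without a test. ECs were sorted as CD31-positive, CD45-negative cells from digested kidneys of CTRL mice (Cre -/-; Rbpjf/f) and RbpjΔEC mice (Cre +/-; Rbpjf/f), male littermates, in 3 libraries a group, each taken as 1 mouse. Both groups carried the floxed Rbpj alleles and received tamoxifen, 5 intraperitoneal doses of 1.5 mg from 8 weeks of age. Kidneys were taken 12 weeks after induction, and the labels give an age of 21 weeks. The inducible Cre was driven by the Cdh5 promoter, which is active in ECs of all vessels, lymphatic vessels included. The mutants develop immune cell aggregates in the kidney, and the sorted cells came from that tissue. Rbpj encodes the DNA-binding factor through which Notch receptors regulate their target genes.

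Basement membranes are the sheets of extracellular matrix on which endothelium and epithelium rest. Type IV collagen is their network-forming component: the chains encoded by Col4a1 and Col4a2 assemble with each other in nearly all tissues, and those of Col4a3, Col4a4 and Col4a5 form the network of the mature glomerular basement membrane, whose loss causes Alport syndrome in humans. Col8a1 encodes a short-chain, network-forming collagen of vessel walls. Col15a1 and Col18a1 encode the multiplexins, collagens that carry heparan or chondroitin sulfate chains, and cleavage of the Col18a1 product releases the fragment endostatin.

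The type IV genes lie in head-to-head pairs, and the start regions of 2 pairs are shown because members of a pair are compared in each library later. On GRCm38 with the GENCODE M21 annotation, Col4a1 (ENSMUSG00000031502.11) spans chr8:11198423-11312826 on the minus strand and Col4a2 (ENSMUSG00000031503.13) spans chr8:11312805-11449287 on the plus strand, so that their first exons overlap by 22 bases. Col4a4 (ENSMUSG00000067158.9, chr1:82448423-82586849, minus strand) and Col4a3 (ENSMUSG00000079465.8, chr1:82586921-82722059, plus strand) are separated by 71 bases. RefSeq windows of 250 bases before to 50 bases after a start (GRCm38.p6) were matched by symbol for 7 of the 8 genes, Col4a3 being the one without an entry, and gave 8 windows. The Col4a1 window is chr8:11312777-11313076, minus strand, with the bases annotated in both Col4a1 and Col4a2 in capitals. The Col4a4 window is chr1:82586800-82587099, minus strand, with the bases between the first bases of Col4a4 and Col4a3 in capitals. Both are written 5′ to 3′ on the minus strand.
Col4a1: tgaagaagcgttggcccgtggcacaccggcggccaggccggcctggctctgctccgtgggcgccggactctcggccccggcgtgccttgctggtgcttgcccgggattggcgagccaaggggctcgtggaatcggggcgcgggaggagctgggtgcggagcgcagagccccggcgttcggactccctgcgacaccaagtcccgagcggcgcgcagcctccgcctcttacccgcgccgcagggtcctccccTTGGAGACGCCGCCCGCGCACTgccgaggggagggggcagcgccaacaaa
Col4a4: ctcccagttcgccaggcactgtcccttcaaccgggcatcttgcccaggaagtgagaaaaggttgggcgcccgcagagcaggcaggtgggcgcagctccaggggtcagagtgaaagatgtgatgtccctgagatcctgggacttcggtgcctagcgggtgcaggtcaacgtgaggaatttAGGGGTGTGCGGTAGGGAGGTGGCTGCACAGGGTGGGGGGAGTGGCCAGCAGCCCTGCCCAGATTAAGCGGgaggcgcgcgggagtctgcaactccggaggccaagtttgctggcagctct

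Col18a1 (ENSMUSG00000001435.15) spans chr10:77052178-77166548 on the minus strand and has 2 annotated starts in RefSeq, 52.8 kb apart, which give forms of the protein that differ in length. Its windows are shown since RBPJ recognises DNA with the core TGGGAA, and Col18a1 is the gene set against the others. The core was searched on both strands in all windows. It was absent from the upstream Col18a1 window, chr10:77166481-77166780, and present once in the downstream window, chr10:77113656-77113955, where it is in capitals and begins 63 bases before the start.
Col18a1 upstream start: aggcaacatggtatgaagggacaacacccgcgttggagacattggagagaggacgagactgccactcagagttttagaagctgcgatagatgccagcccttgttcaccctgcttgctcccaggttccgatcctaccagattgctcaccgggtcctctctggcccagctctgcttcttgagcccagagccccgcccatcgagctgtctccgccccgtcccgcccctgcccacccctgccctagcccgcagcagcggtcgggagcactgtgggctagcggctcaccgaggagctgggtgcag
Col18a1 downstream start: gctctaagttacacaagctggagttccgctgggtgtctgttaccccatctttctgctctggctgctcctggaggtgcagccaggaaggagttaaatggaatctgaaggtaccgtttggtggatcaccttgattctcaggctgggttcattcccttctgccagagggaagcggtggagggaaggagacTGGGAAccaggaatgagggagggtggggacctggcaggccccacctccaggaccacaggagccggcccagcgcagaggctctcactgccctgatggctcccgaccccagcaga

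Of the 8 windows, 2 held TGGGAA, the other being that of Col4a5, which also held the longer GTGGGAA, which contains the shorter motif. Among all 32851 mouse windows, 25.6% held TGGGAA and 6.38% held GTGGGAA. The windows of Col4a1 and Col4a2 were rich in G and C, at 74.0% and 73.7%, against 52.3% for Col15a1 and 52.7% for Col4a5. The counts are per gene, so the use of the 2 Col18a1 starts was not measured. The remaining members are Col4a5 (ENSMUSG00000031274.16, chrX:141475385-141689234, plus strand), Col8a1 (ENSMUSG00000068196.5, chr16:57624258-57754737, minus strand) and Col15a1 (ENSMUSG00000028339.17, chr4:47208161-47313167, plus strand). Genes on the opposite strand overlap exons of Col4a2 (Gm15419, 18 to 75 counts per library), Col4a3 (C430014B12Rik, 12 to 29 counts) and Col15a1 (Gm12426, 9 to 50 counts), and Slc19a1 (7 to 80 counts) overlaps the span of Col18a1 but none of its exons. Whether the counting used the strand is not given in the sources used here.

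Total counts on genes were between 39649171 and 47726850 per library, and 3 counts, taken as the floor, were 0.0634 to 0.0749 CPM (counts per 1000000 counts of a library, after scaling by edgeR's TMM method), a floor that covers counting error only. At least 1 count was found for 33764 genes in CTRL 1 and for 25629 to 26785 genes in each other library. Of the 18438 genes with enough counts to test, 209 (1.13%) passed an adjusted p of 0.05 in edgeR's quasi-likelihood test, 103 lower (0.559%) and 106 higher (0.575%) in RbpjΔEC, or 82 lower and 159 higher when scaled by library size alone. The number of 209 depended on single libraries: it was 54 without CTRL 1, 700 without CTRL 2, 24 without CTRL 3, and 21, 48 and 521 without RbpjΔEC 1, 2 and 3. Rbpj itself, counted over the whole gene and not over the floxed part, was at 28.1, 29.7 and 29.8 CPM in CTRL and 28.9, 26.1 and 29.6 CPM in RbpjΔEC (log2 fold change -0.05, SE 0.0867, adjusted p = 0.793, edgeR), so that gene counts did not check the deletion. The Notch target Hey1 was at 19.7 ± 2.93 CPM in CTRL and 11.7 ± 2.83 CPM in RbpjΔEC (SD, n = 3 each; log2 fold change -0.76, SE 0.176, adjusted p = 0.0722, edgeR), and its groups did not overlap. The 14 pan-endothelial markers, Pecam1 and Cdh5 among them, summed to 24953 to 30132 CPM per library.

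Within the members, Col18a1 and Col8a1 were lower in every RbpjΔEC library. Col18a1 stood at 51.8% of its CTRL mean in RbpjΔEC and Col8a1, a gene with few counts, at 41.2%, while the most abundant chains, Col4a1 and Col4a2, had nearly equal means in both groups and Col15a1 spread widely among the mutants. The remaining type IV chains overlapped between the groups. All 8 genes had enough counts to be tested. In edgeR, Col18a1 was the 1 member called in this contrast, in the direction in which 0.559% of all tested genes were called. DESeq2 called 2 members lower, Col18a1 and Col8a1, beside 2.77% of all tested genes, and edgeR without the low-count filter called these lower and Col4a3 higher, beside 1.88% lower and 1.87% higher of the 38324 genes it tested. In 2 members, Col18a1 and Col8a1, every RbpjΔEC library was below every CTRL library, as in 11.6% of all tested genes, and no member was higher in every RbpjΔEC library, as 11.4% of all genes were. As the members were chosen on this contrast, nothing is read from these counts.

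**Figure D1:**
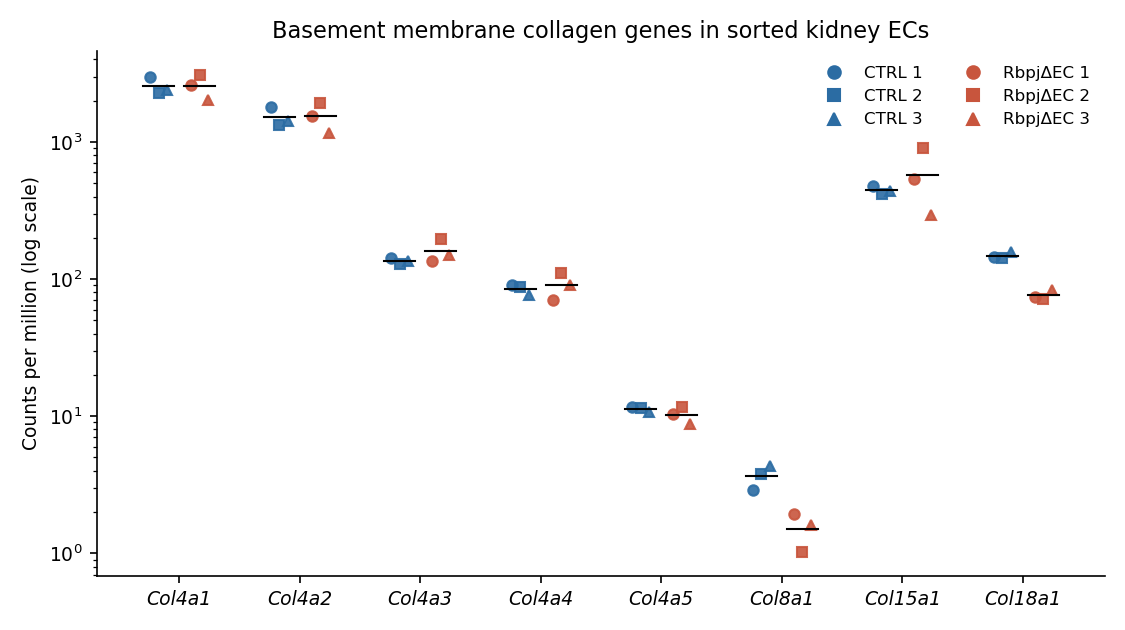
CPM (log scale) of the 8 basement membrane collagen genes in each library, CTRL in blue and RbpjΔEC in red, with the group mean as a line (n = 3 each). Col18a1 lies at 141.6 to 156.5 CPM in CTRL and 71.1 to 83.4 CPM in RbpjΔEC without overlap, whereas Col4a1, Col4a2 and Col15a1 overlap.

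Levels of different genes are comparable only per length, and CPM were divided by the merged exonic length in kilobases (kb) for this purpose. In CTRL the order was Col4a1 (340.8 CPM per kb), Col4a2 (229.996), Col15a1 (69.96), Col18a1 (21.0), Col4a3 (13.6), Col4a4 (8.03), Col4a5 (1.68) and Col8a1 (0.469). No neighbours in this order overlapped over the 3 CTRL libraries. Col4a1 ranked 53 and Col4a2 ranked 76 of 18411 genes with a length, and Col15a1 ranked 375, Col18a1 1899, Col4a3 3188, Col4a4 5065, Col4a5 10955 and Col8a1 14776. In RbpjΔEC Col18a1 stood below Col4a3 in the order, at 10.6, 10.1 and 11.9 CPM per kb against 13.7, 19.6 and 15.1 CPM per kb for Col4a3. Its range there overlapped that of Col4a4, which was at 6.63, 10.4 and 8.60 CPM per kb, and in RbpjΔEC 2 Col4a4 was the higher of the pair. The ranges of Col4a1 and Col4a2 also overlapped in RbpjΔEC, at 272.7 to 415.6 and 176.9 to 292.5 CPM per kb, although Col4a1 was higher within each library.

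The 8 members made up 95.2% to 96.9% of the CPM of all 44 collagen chain genes listed. Of the 36 collagen genes that are not members, 21 were tested, and the highest of them per kb was Col13a1, a transmembrane collagen, at 12.7 CPM per kb in CTRL, just under Col4a3. Of these 21 genes 15 had a log2 fold change below 0, with a median of -0.34, and 0 passed the threshold in edgeR, while 4 were lower and 1 higher before adjustment (p under 0.05), beside 8.62% and 8.88% of all tested genes, and DESeq2 called 3 lower and 0 higher, beside 2.77% and 2.35%. The members summed to 4894 ± 668.8 CPM in CTRL and 5044 ± 1250 CPM in RbpjΔEC (SD, n = 3 each), which was 0.388% to 0.641% of all counts, and the groups overlapped. Col4a1 and Col4a2 together held 83.0 ± 1.49% of the members' CPM in CTRL and 82.2 ± 2.25% in RbpjΔEC.

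The ubiquitous type IV chains Col4a1 and Col4a2 differed little between the groups and moved as a pair. Col4a1 was at 2967.7, 2264.3 and 2399.9 CPM in CTRL and 2588.7, 3102.3 and 2035.6 CPM in RbpjΔEC. RbpjΔEC 2 was the highest and RbpjΔEC 3 the lowest of all libraries, with CTRL and RbpjΔEC 1 between them. The means were 2543.9 ± 373.2 and 2575.6 ± 533.5 CPM (SD, n = 3 each), a log2 fold change of 0.02 (SE 0.160). Col4a2 was at 1815.5, 1322.4 and 1429.2 CPM in CTRL and 1548.1, 1936.2 and 1171.1 CPM in RbpjΔEC, with the same order of libraries. Its log2 fold change was 0.03 (SE 0.205). Per kb, the ratio of Col4a2 to Col4a1 was 0.690, 0.659 and 0.672 in CTRL and 0.674, 0.704 and 0.649 in RbpjΔEC. Across all 6 libraries the highest ratio was 1.08 times the lowest, although the level of each chain differed far more between mice. These are the genes whose first exons overlap in the Col4a1 window shown above, and they were the deepest measured of the members, Col4a1 with 81572 to 130138 counts and Col4a2 with 46927 to 81219.

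The chains of the glomerular network were measured at lower levels and overlapped between the groups. Col4a3 was at 141.7, 129.7 and 135.5 CPM in CTRL and 136.2, 195.0 and 150.3 CPM in RbpjΔEC. RbpjΔEC 2 was the highest, and RbpjΔEC 1 lay within the CTRL range. The log2 fold change was 0.24 (SE 0.118), and 0.08 without RbpjΔEC 2. Col4a4, the other gene of the pair, was at 90.8, 87.9 and 76.9 CPM in CTRL and 70.3, 110.6 and 91.3 CPM in RbpjΔEC, with RbpjΔEC 1 the lowest and RbpjΔEC 2 the highest of all libraries. Its log2 fold change was 0.09 (SE 0.155), with -0.08 without RbpjΔEC 2 and 0.25 without RbpjΔEC 1. Col4a5, which is on the X chromosome, was at 11.7, 11.5 and 10.7 CPM in CTRL and 10.3, 11.6 and 8.71 CPM in RbpjΔEC. RbpjΔEC 3 was the lowest and RbpjΔEC 2 lay within the CTRL range, and the log2 fold change was -0.14 (SE 0.134), with -0.04 without RbpjΔEC 3 and -0.25 without RbpjΔEC 2.

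The chains of this network were not counted in equal amounts, since per kb Col4a3 exceeded Col4a4 and both exceeded Col4a5 in every library. The ratio of Col4a4 to Col4a3 per kb was 0.602, 0.637 and 0.533 in CTRL and 0.485, 0.533 and 0.571 in RbpjΔEC, with overlap. The ratio of Col4a5 to Col4a3 per kb was 0.122, 0.131 and 0.117 in CTRL and 0.112, 0.0883 and 0.0860 in RbpjΔEC. This ratio was lower in every RbpjΔEC library, with RbpjΔEC 1 close to CTRL 3. Podocytes, the epithelial cells of the glomerulus, are known to make this network, and of their defining genes Nphs1 was at 0.334 to 2.98 CPM and Wt1 at 0.429 to 1.70 CPM over the 6 libraries. In RbpjΔEC 2, which had the highest Col4a3 and Col4a4, Nphs1 and Wt1 were at their lowest, 0.334 and 0.429 CPM. The part of podocytes in the levels of these chains was not tested.

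Col8a1 was the member with the lowest level and the fewest counts, with 117, 178 and 183 counts in CTRL and 86, 43 and 64 in RbpjΔEC. These were 2.92, 3.76 and 4.33 CPM in CTRL and 1.92, 1.03 and 1.597 CPM in RbpjΔEC. Every RbpjΔEC library was below every CTRL library, and the gap between RbpjΔEC 1 and CTRL 1 was the narrowest. The means were 3.67 ± 0.712 and 1.51 ± 0.452 CPM (SD, n = 3 each), a log2 fold change of -1.28 (SE 0.283), at the percentile 1.62 of all tested genes counted from the lowest.

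Col15a1 was even among the control mice and uneven among the mutants. It was at 475.6, 420.04 and 436.98 CPM in CTRL and 533.9, 904.7 and 294.8 CPM in RbpjΔEC. RbpjΔEC 2 was the highest and RbpjΔEC 3 the lowest of all libraries, the same extremes as for Col4a1 and Col4a2, and the highest mutant value was 3.07 times the lowest. The means were 444.2 ± 28.5 and 577.8 ± 307.3 CPM (SD, n = 3 each), with a coefficient of variation of 6.40% in CTRL and 53.2% in RbpjΔEC. The log2 fold change of 0.38 (SE 0.442) turned to -0.10 without RbpjΔEC 2 and was 0.70 without RbpjΔEC 3.

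Col18a1, the other multiplexin, was even within both groups and lower in RbpjΔEC. It was at 144.6, 141.6 and 156.5 CPM in CTRL and 74.6, 71.1 and 83.4 CPM in RbpjΔEC, from 2984 to 6702 counts per library. The lowest CTRL library was well above the highest RbpjΔEC library, and the third library was the highest of each group. The log2 fold change was -0.95 (SE 0.0786), at the percentile 3.11 of all tested genes from the lowest, the smallest standard error of the 8 members. Leaving out single libraries gave -1.02 to -0.90, with -0.97 without CTRL 1, the library with counts on the most genes. In bulk samples such as these, fewer cells that express a gene and less RNA per cell cannot be told apart.

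**Figure D2:**
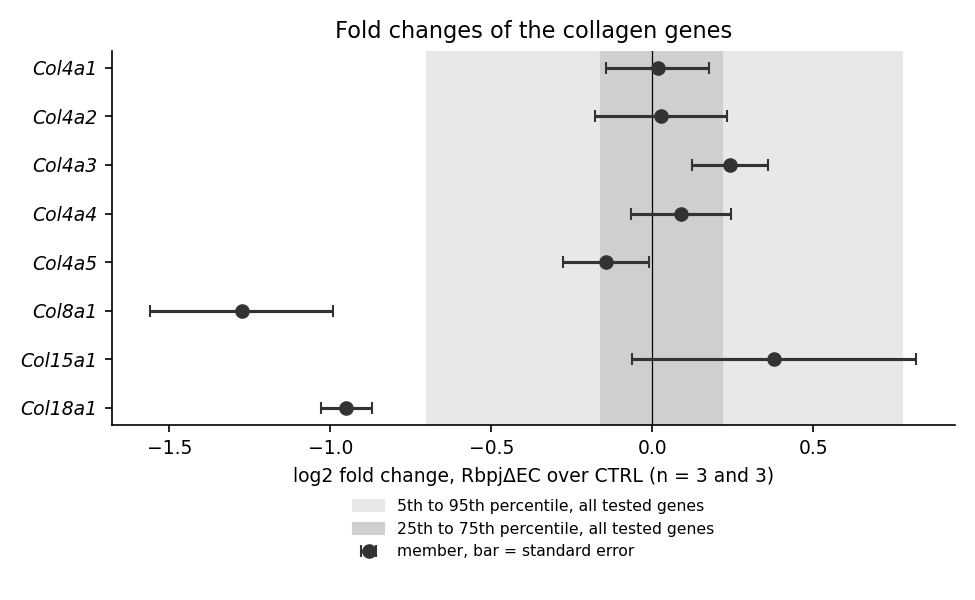
Log2 fold change of each member, RbpjΔEC over CTRL (n = 3 and 3), with its standard error as a bar, over grey bands for the middle of all 18438 tested genes. Col18a1 (-0.95) and Col8a1 (-1.28) lie outside the outer band, which runs from -0.70 at the 5th to 0.78 at the 95th percentile, and the other 6 members lie inside it.

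The contrast between Col18a1 and the other chains was followed within each library, where the scaling of the library cancels. Col18a1 held 2.56%, 3.23% and 3.36% of the members' summed CPM in CTRL and 1.50%, 1.12% and 2.17% in RbpjΔEC. The share was lower in every RbpjΔEC library, by 1.45 percentage points between the means, and the difference lay between -1.74 and -1.21 points when each library was left out. Per kb, the ratio of Col18a1 to Col4a1 was 0.0518, 0.0665 and 0.0693 in CTRL and 0.0306, 0.0244 and 0.0435 in RbpjΔEC. Here CTRL 1, with high Col4a1, and RbpjΔEC 3, with low Col4a1, came closest to each other. The ratio of Col15a1 to Col18a1 per kb was 3.64, 3.28 and 3.09 in CTRL and 7.92, 14.1 and 3.91 in RbpjΔEC. All RbpjΔEC libraries were above CTRL in this ratio, with RbpjΔEC 3, the library with the lowest Col15a1, nearest to the CTRL range. The ratio of Col15a1 to Col4a1 per kb overlapped, at 0.188 to 0.218 in CTRL and 0.170 to 0.343 in RbpjΔEC.

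**Figure D3:**
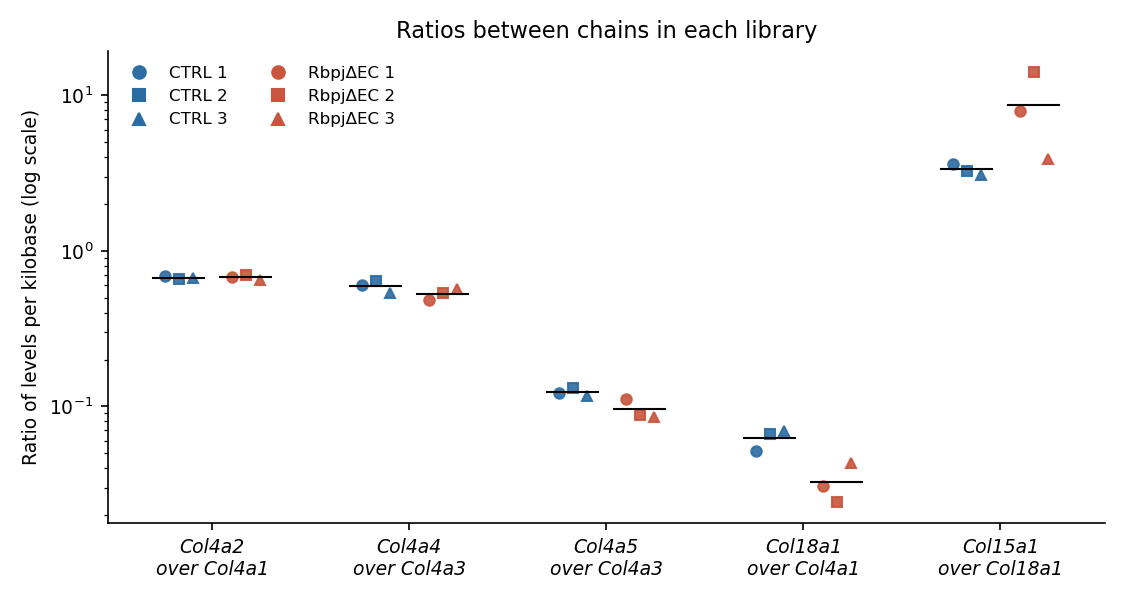
Ratios between chains in each library, from CPM per kb and on a log scale, CTRL in blue and RbpjΔEC in red, with the group mean as a line (n = 3 each). Col4a2 over Col4a1 stays between 0.649 and 0.704, whereas Col18a1 over Col4a1 falls from 0.0518 to 0.0693 in CTRL to 0.0244 to 0.0435 in RbpjΔEC, and Col15a1 over Col18a1 reaches 14.1 in RbpjΔEC 2.

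The genes whose pattern over the 6 libraries was most like that of Col18a1 were found by Pearson's r of log2 CPM among 10441 genes with a mean of at least 5 CPM. They were Elovl1, a fatty acid elongase (r = 0.997), Kctd10 (r = 0.996), Slco2a1, a prostaglandin transporter (r = 0.996), Tgfb2, a ligand of the TGF-beta family (r = 0.996), and Zfp748 (r = 0.991). The libraries of the 2 genotypes lie apart in Col18a1, so r mostly records the same separation, and 391 genes had an r of at least 0.9. Of the named genes Tgfb2 had a fold change closest to that of Col18a1, at 75.7, 76.8 and 78.8 CPM in CTRL and 39.5, 34.8 and 41.6 CPM in RbpjΔEC (log2 fold change -0.998). The other named genes differed less, with Slco2a1 at 216.6 ± 8.16 and 143.7 ± 11.1 CPM and Kctd10 at 182.2 ± 1.82 and 156.4 ± 1.32 CPM (SD, n = 3 each).

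The genes that modify, bind, sense and cut these collagens were followed in 6 lists of 106 genes, of which 86 were tested. In edgeR's quasi-likelihood test adjusted over all genes, 4 were lower in RbpjΔEC and 0 higher, beside 0.559% and 0.575% of all tested genes. With p unadjusted and under 0.05, 26 were lower and 5 higher, beside 8.62% and 8.88% of all tested genes, and DESeq2 called 16 lower and 2 higher, beside 2.77% and 2.35%. A log2 fold change below 0 was found for 66 of the 86, with a median of -0.17, against 9019 of 18438 and a median of 0.01 over all genes. Of the 14 pan-endothelial markers, 10 were below 0, with a median of -0.18, so the shift was not particular to these lists. The count of 4 depended on the libraries: it was 1 without CTRL 1, 10 without CTRL 2, 0 without CTRL 3, and 0, 1 and 10 without RbpjΔEC 1, 2 and 3. In the 2 settings with a count of 0, without CTRL 3 and without RbpjΔEC 1, 24 and 19 genes were lower at an unadjusted p under 0.05.

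Among the partners of collagen in the basement membrane (21 tested, median log2 fold change -0.14), edgeR called 2 lower and 0 higher and DESeq2 called 5 lower and 0 higher. Without adjustment, 7 of them were lower and 1 higher with p under 0.05. Fbln2, which encodes fibulin-2, fell from 89.1 ± 7.81 to 61.7 ± 2.25 CPM (SD, n = 3 each; log2 fold change -0.53, SE 0.0792, adjusted p = 0.0138, edgeR). Lamb1, which encodes the laminin beta1 chain, fell from 62.5 ± 5.26 to 46.6 ± 4.05 CPM (log2 fold change -0.42, SE 0.0894, adjusted p = 0.0471, edgeR). The laminin beta2 chain gene Lamb2, the more abundant of the pair, was at 1010 ± 61.1 and 825.4 ± 26.8 CPM (adjusted p = 0.0803, edgeR). All 3, named for their low p, were lower in every RbpjΔEC library. In the whole list this held for 6 of 21 tested genes, beside 11.6% of all tested genes. The call of Fbln2 was lost without CTRL 3 (adjusted p = 0.0731, edgeR), RbpjΔEC 1 (0.0808) or RbpjΔEC 2 (0.0650). That of Lamb1 was lost without any library but CTRL 2, with adjusted p of 0.138 and 0.184 without CTRL 1 and CTRL 3 and of 0.0929, 0.147 and 0.0592 without RbpjΔEC 1, 2 and 3.

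Among the receptors and binding proteins of collagens and their fragments (16 tested, median log2 fold change -0.29), edgeR called Ddr1 lower and 0 genes higher, and DESeq2 called 6 lower and 0 higher. Without adjustment, 7 were lower and 0 higher with p under 0.05. Ddr1, a receptor tyrosine kinase that binds collagen, fell from 7.89 ± 1.31 to 3.14 ± 0.963 CPM (SD, n = 3 each; log2 fold change -1.33, SE 0.237, adjusted p = 0.0273, edgeR). The integrin beta1 gene Itgb1 was at 933.5 ± 58.1 and 739.9 ± 40.0 CPM (adjusted p = 0.0610, edgeR), and Nrp1, a coreceptor of VEGF, at 2401 ± 109.8 and 1884 ± 240.3 CPM (adjusted p = 0.0975, edgeR). All 3, named for their low p, were lower in every RbpjΔEC library. In the whole list this held for 7 of 16 tested genes, beside 11.6% of all tested genes. The call of Ddr1 was lost without CTRL 1 (adjusted p = 0.103, edgeR), CTRL 3 (0.0929), RbpjΔEC 1 (0.106) or RbpjΔEC 2 (0.0688).

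Among the proteases that cut collagens or release endostatin and their inhibitors (15 tested, median log2 fold change -0.26), edgeR called Timp2 lower and 0 genes higher, and DESeq2 called 3 lower and 2 higher. Without adjustment, 5 were lower and 2 higher with p under 0.05. Timp2, an inhibitor of metalloproteinases, fell from 52.1 ± 4.44 to 33.2 ± 3.83 CPM (SD, n = 3 each; log2 fold change -0.65, SE 0.100, adjusted p = 0.0150, edgeR). The call was lost without CTRL 1 (adjusted p = 0.0574, edgeR), CTRL 3 (0.0687) or RbpjΔEC 1 (0.0742). The gelatinase gene Mmp2 was at 7.07 ± 1.28 and 3.44 ± 1.04 CPM (adjusted p = 0.0660, edgeR), and the proteoglycan-cutting protease gene Adamts4 at 5.46 ± 0.796 and 9.22 ± 1.43 CPM (adjusted p = 0.0602, edgeR). Mmp2 was lower and Adamts4 higher in every RbpjΔEC library. In the whole list 3 of 15 tested genes were lower and 2 higher in this way, beside 11.6% and 11.4% of all tested genes.

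No gene passed the threshold in edgeR in the lists of chain modification, folding and export, of cross-linking, and of the other basement membrane collagens. In the first list, 23 genes were tested, with 5 lower and 1 higher before adjustment (p under 0.05), 1 lower in DESeq2, and a median log2 fold change of -0.11. P4hb, a subunit of the prolyl hydroxylase that stabilises the collagen helix, was at 291.7 ± 22.0 and 247.5 ± 20.3 CPM, P3h2, a prolyl 3-hydroxylase, at 6.60 ± 1.33 and 3.29 ± 1.58 CPM, and Klhl12, an adaptor of collagen export, at 20.6 ± 2.32 and 24.9 ± 2.69 CPM (SD, n = 3 each; adjusted p = 0.164, 0.133 and 0.235, edgeR). In the cross-linking list, 6 genes were tested, with 1 lower and 0 higher before adjustment (p under 0.05) and 0 in DESeq2. Lox, a lysyl oxidase, was at 4.09 ± 0.657 and 2.46 ± 0.737 CPM, its relative Loxl3 at 3.06 ± 0.982 and 3.66 ± 0.0627 CPM, and the transglutaminase gene Tgm2 at 393.9 ± 35.3 and 376.0 ± 53.6 CPM (adjusted p = 0.167, 0.630 and 0.781, edgeR). In the list of other basement membrane collagens, 5 genes were tested, with 1 lower and 1 higher before adjustment (p under 0.05) and 1 lower in DESeq2. Col6a3 was at 3.21 ± 1.64 and 0.970 ± 0.643 CPM, Col7a1 at 2.48 ± 0.157 and 3.81 ± 0.724 CPM, and Col4a6, the neighbour of Col4a5, at 1.29 ± 0.0731 and 0.824 ± 0.130 CPM (adjusted p = 0.132, 0.179 and 0.316, edgeR).

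**Figure D4:**
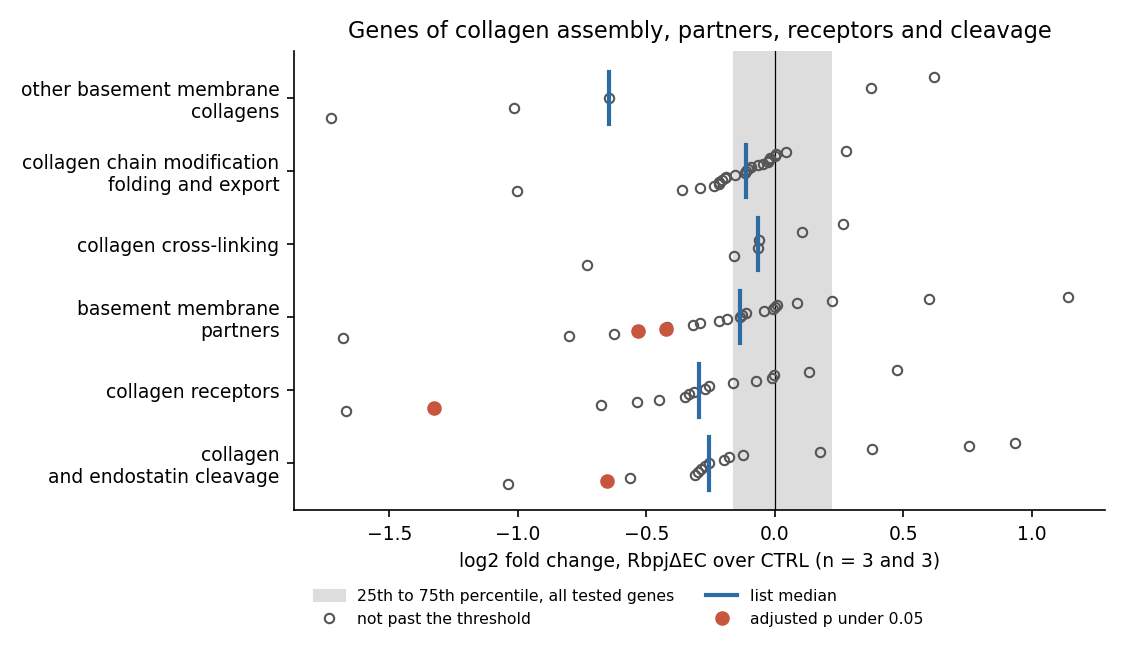
Log2 fold change (RbpjΔEC over CTRL, n = 3 and 3) of each tested gene in the 6 lists of genes that assemble, bind, sense or cut basement membrane collagens, with the list median as a bar and the middle of all tested genes as a grey band from -0.16 to 0.22. The 4 filled points, Fbln2, Lamb1, Ddr1 and Timp2, are the genes with an adjusted p under 0.05, and all lie below 0.

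Markers of EC types and of other kidney cells were also unequal between the groups. Mural cell markers, smooth muscle and pericyte genes such as Acta2, Myh11 and Pdgfrb, summed to 248.0 to 327.3 CPM in CTRL and 194.8 to 223.2 CPM in RbpjΔEC, and all 10 tested of 11 had a log2 fold change below 0 (median -1.12). Most of this sum was Mcam, which ECs also express, and without it the mural sum was at 89.5 to 117.1 CPM in CTRL and 36.1 to 60.2 CPM in RbpjΔEC, 47.5% of CTRL in the mean. The glomerular endothelial markers, Ehd3 among them, summed to 1998 to 2488 CPM and 1320 to 1781 CPM, with 6 of 6 below 0 (median -0.80). The arterial endothelial markers, of which Hey1 is 1, summed to 1832 to 1996 and 1743 to 1825 CPM, with 8 of 10 below 0 (median -0.52). Efnb2 and Dll4 held most of the arterial sum, and without Efnb2 the groups overlapped, at 894.9 to 1082 and 925.8 to 1016 CPM. The pan-endothelial sum itself was at 27313 to 30132 CPM in CTRL and 24953 to 25129 CPM in RbpjΔEC, 86.2% of CTRL in the mean, with 10 of 14 below 0. Beside this, Col18a1 stood at 51.8% of CTRL, the glomerular endothelial sum at 64.1%, the arterial endothelial sum at 92.3% and the mural sum at 73.4%, or 47.5% without Mcam.

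Mesangial markers summed to 152.6 to 179.2 CPM in CTRL and 111.8 to 147.8 CPM in RbpjΔEC (6 of 6 below 0), stroma markers to 7.31 to 12.4 and 2.10 to 4.62 CPM (4 of 4 tested of 8 below 0), and parietal epithelial markers to 4.06 to 5.31 and 2.10 to 3.94 CPM (3 of 3 tested of 4 below 0). The podocyte list summed to 3264 to 3633 and 2690 to 2966 CPM (5 of 8 below 0), a sum held mostly by Podxl, which ECs also express, and without Podxl it was higher in every RbpjΔEC library, at 254.9 to 279.5 and 286.3 to 297.5 CPM. Tubule markers overlapped, at 291.1 to 423.6 and 124.4 to 444.7 CPM (5 of 9 below 0), with RbpjΔEC 3 the highest and RbpjΔEC 2 the lowest of all libraries. Leukocyte markers were higher in every RbpjΔEC library, at 15.7 to 18.3 and 24.0 to 29.3 CPM, but overlapped without Cd68, at 3.42 to 11.3 and 1.87 to 4.22 CPM, while 3 of 5 tested of 8 were below 0 and the T cell gene Cd3e was at 0 in all libraries. The part of these cells in the levels of Col18a1, Col8a1 and the other members was not tested.

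**Figure D5:**
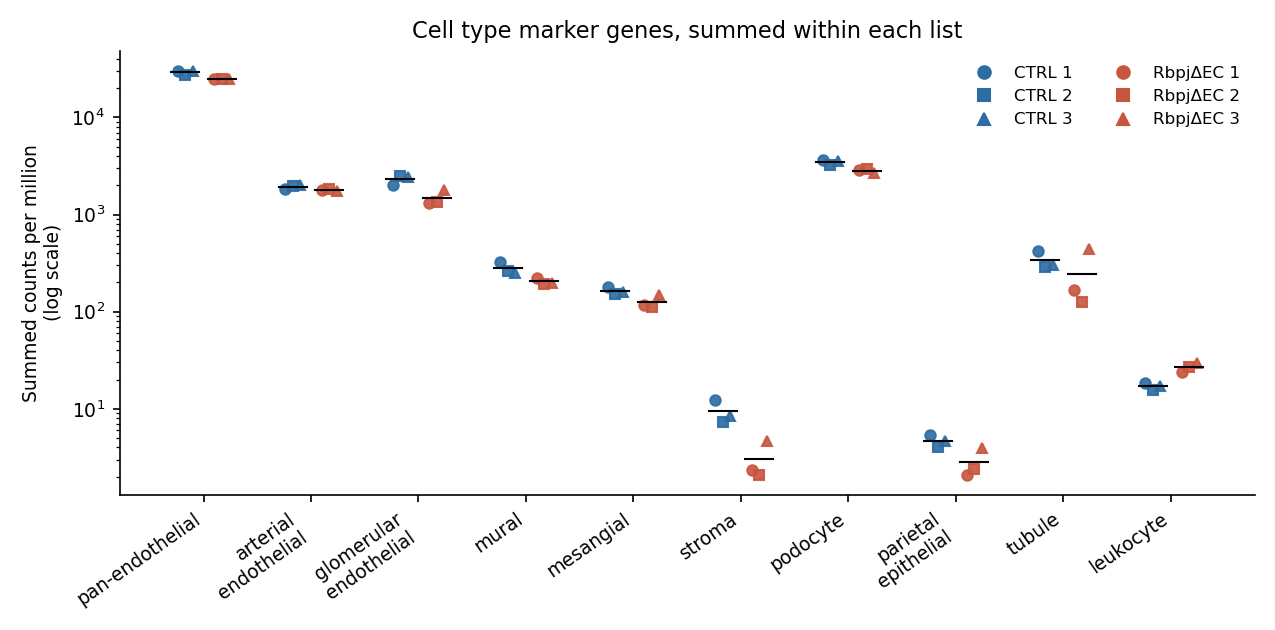
Summed CPM (log scale) of 10 lists of cell type marker genes in each library, CTRL in blue and RbpjΔEC in red, with the group mean as a line (n = 3 each). The pan-endothelial sum lies above all others in every library, at 24953 to 30132 CPM. All sums but those of the tubule and leukocyte lists are lower in every RbpjΔEC library. The tubule sums overlap, and the leukocyte sum is higher in every RbpjΔEC library.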

How the data were processed

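RNA of sorted kidney ECs was sequenced in 1 common run (3 CTRL, 3 RbpjΔEC), and groups were taken from the sample labels. The authors trimmed reads with Trim Galore 0.6.4, aligned them with STAR 2.6.1d to GRCm38.p6 within the nf-core pipeline, counted them per GENCODE M25 gene with featureCounts (Subread 1.6.4), and deposited whole-number counts without normalization.

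EdgeR 4.0.16 in R 4.3.3 gave TMM factors, CPM and tests (filterByExpr, glmQLFit with robust estimation, glmQLFTest, Benjamini-Hochberg over 18438 genes, threshold 0.05). Lengths and positions were taken from GENCODE M21 (GRCm38), where 18411 tested genes were matched by unversioned ID, and promoter windows from RefSeq. Log2 CPM for likeness used a prior count of 2. Standard errors were derived from the F statistic. The fit was tested on simulated data.

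The members and gene lists were chosen with earlier results of these data known. Named genes were the 8 members, from each list the 3 tested genes of lowest p and all list genes past the threshold, the 5 genes most like Col18a1, and Rbpj and Hey1. Genes named as marker examples and Col13a1, Podxl, Mcam, Efnb2, Dll4, Cd68 and Cd3e were chosen after their values were seen, as was the alternative of leaving the most abundant gene out of each marker sum. Pxdnl of the cross-linking list was not analysed here. Alternatives covered normalization, filters, DESeq2 1.42.0, a replicate block and leaving out each library. The labels number libraries without naming animals, so p-values measure the spread between these libraries.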

Additional observations from a re-analysis of the deposited data

How the results depend on the processing

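Over 12 alternatives, the log2 fold change of Col18a1 stayed between -1.02 and -0.90, a description since the gene was chosen on this contrast, and the difference in its share kept its sign without each library. Among the other members the sign of the log2 fold change turned without single libraries for Col4a1 and Col4a2 (without CTRL 2, CTRL 3 or RbpjΔEC 2, lowest -0.14 and -0.16), Col4a4 (without RbpjΔEC 2, -0.08) and Col15a1 (without RbpjΔEC 2, -0.10), and in none of the 12 for Col4a3, Col4a5 and Col8a1. The number of genes past the threshold over all genes, 209, was 1436 without the low-count filter, 944 with DESeq2, 344 with a replicate block, and 21 to 700 without single libraries. That of the pathway genes, 4, was 22 without the filter, 18 with DESeq2, 8 with the replicate block, and 0 to 10 without single libraries; in the smallest of these, 24 genes were lower at an unadjusted p under 0.05 without CTRL 3 and 19 without RbpjΔEC 1. With scaling by library size alone, 159 genes were called higher and 82 lower, against 106 and 103, the median log2 fold change over all genes was 0.05 in place of 0.01, and the scaling ended the call of Lamb1 (adjusted p = 0.0633, edgeR). The causes were not tested. Same-numbered libraries did not deviate together (correlations of 0.0231, 0.00916 and 0.00544). With 3 libraries a group, this cannot tell whether the numbers pair the mice, and the labels do not state it. Each value rests on 3 libraries a group, and Col8a1 also on few counts, 43 to 183 per library.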
